A study of Mus musculus with 36 samples.

Results

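Mature miRNAs were compared between prostates of Elac2 knockout mice (KO) and of wild-type mice (WT), all aged 30 weeks and free of the TRAMP tumour transgene. Every miRNA whose normalised counts averaged 10 or more across the 3 KO and 3 WT libraries was included. This gave 533 of the 1963 miRNAs listed, of which 1308 had a read in any of the 6 libraries. Just inside the limit stood miR-3470a and miR-129-1-3p with means of 10.01 each, and just outside it stood miR-3099-3p at 9.92 and miR-23a-5p at 9.90.

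The series holds 36 small RNA libraries in 12 groups of 3, in which ELAC2 genotype, age and the TRAMP transgene vary. Of these, 6 libraries make up the comparison described here. WT mice were ELAC2+/+ and KO mice ELAC2-/-, on the strain labelled C56NL/6N, and all were males matched by age and litter. The ventral and lateral lobes were taken and total RNA was used for the libraries. KO was made with Cre under the probasin promoter (Pb-Cre), which acts in prostate epithelium, so that stroma, vessels, nerves and blood cells of the same lobes keep the gene. The sources used here do not say whether WT mice carried Cre. The tables hold small RNAs only, so the loss of Elac2 mRNA was not measured in these libraries, and the group of each library rests on the names of the tables.

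A miRNA is cut from a hairpin precursor into a duplex of about equal arms, named 5p and 3p, and 1 arm is usually kept in Argonaute. The arm then pairs with messenger RNAs through its seed, which is bases 2 to 8 from its 5′ end, so that miRNAs with a common seed can share targets. ELAC2 is the long form of RNase Z, which trims the 3′ end of precursor tRNAs in nucleus and mitochondrion and can also release hairpins that are attached to tRNA-like structures. ELAC2 variants have been studied as risk factors for prostate cancer.

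The sequences below are those of the miRNAs on which the comparison turned. They are mature sequences from RefSeq (GRCm38.p6), written 5′ to 3′ with the seed in capitals, and 426 of the 533 miRNAs could be matched to an entry. The first set holds miRNAs of leukocytes that were higher in all 3 KO libraries, the second holds other miRNAs with higher values in KO grouped by common seed, and the third holds those with lower values.
miR-142a-5p: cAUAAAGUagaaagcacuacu
miR-142a-3p: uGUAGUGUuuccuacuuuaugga
miR-146a-5p: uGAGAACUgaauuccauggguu
miR-155-5p: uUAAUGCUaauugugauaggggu
miR-223-3p: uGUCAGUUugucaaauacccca
miR-10a-5p: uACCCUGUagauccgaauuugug
miR-10b-5p: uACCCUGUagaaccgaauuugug
miR-30a-5p: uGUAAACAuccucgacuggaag
miR-30c-5p: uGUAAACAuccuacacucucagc
miR-17-5p: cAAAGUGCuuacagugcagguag
miR-20a-5p: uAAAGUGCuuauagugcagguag
miR-93-5p: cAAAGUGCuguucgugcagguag
miR-92a-3p: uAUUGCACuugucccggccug
miR-193b-3p: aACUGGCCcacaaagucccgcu
miR-365-3p: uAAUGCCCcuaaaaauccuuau
miR-365-1-5p: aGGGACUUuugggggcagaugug
miR-210-3p: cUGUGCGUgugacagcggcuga
miR-1291: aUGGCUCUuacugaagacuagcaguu
miR-22-3p: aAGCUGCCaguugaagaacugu
miR-7a-5p: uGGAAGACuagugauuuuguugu
miR-7b-5p: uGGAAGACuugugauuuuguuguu
miR-127-3p: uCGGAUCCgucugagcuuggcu
miR-495-3p: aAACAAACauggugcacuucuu
miR-329-5p: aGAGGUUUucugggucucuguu
miR-10a-5p and miR-10b-5p had the same seed, as did miR-30a-5p and miR-30c-5p, miR-7a-5p and miR-7b-5p, and the trio miR-17-5p, miR-20a-5p and miR-93-5p. miR-193b-3p and miR-365-3p come from neighbouring hairpins but had different seeds. miR-127-3p, miR-495-3p and miR-329-5p stand for a large imprinted cluster on chromosome 12.

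The libraries held 13647537 to 17049112 recovered reads and 906 to 985 miRNAs each, and between 67.1% and 70.2% of the reads fell to the top 10 miRNAs of the library. Size factors were 0.880 to 0.906 in KO and 1.02 to 1.18 in WT. Counting error is largest for miRNAs with means near 10, where a library held few reads. Markers of the labelled tissue were present: the miR-200 family, which is characteristic of epithelium, held 6.13% to 9.60% of reads, and the miR-143 and miR-145 list, abundant in smooth muscle, held 12.4% to 29.3%. These families mark epithelium and smooth muscle of many organs, and do not by themselves identify prostate.

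The 6 libraries did not divide by genotype. The median absolute log2 difference over the 533 miRNAs was 0.187 between KO libraries 22 and 24 and 0.242 between WT libraries 20 and 21. It was as small, at 0.228, between WT library 19 and KO library 23. All other pairs lay between 0.402 and 0.635. In principal components on log2(normalised count + 1), the first component held 51.2% of variance and set WT libraries 20 and 21 apart, and the second held 38.3% and set KO libraries 22 and 24 apart from libraries 19 and 23. Libraries 19 and 23 stood together above or below the other 4 libraries for 275 of 533 miRNAs. No pair matched within counting noise, since between 52.9% and 89.4% of the 312 miRNAs with a mean of at least 100 differed by more than a 95% counting interval in each pair. Library 19 was nearer to a KO library than to either WT library, and library 23 was nearer to a WT library than to either KO library. Results that rest on them are therefore given with and without them. The reason for the pairing was not tested.

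**Figure D1:**
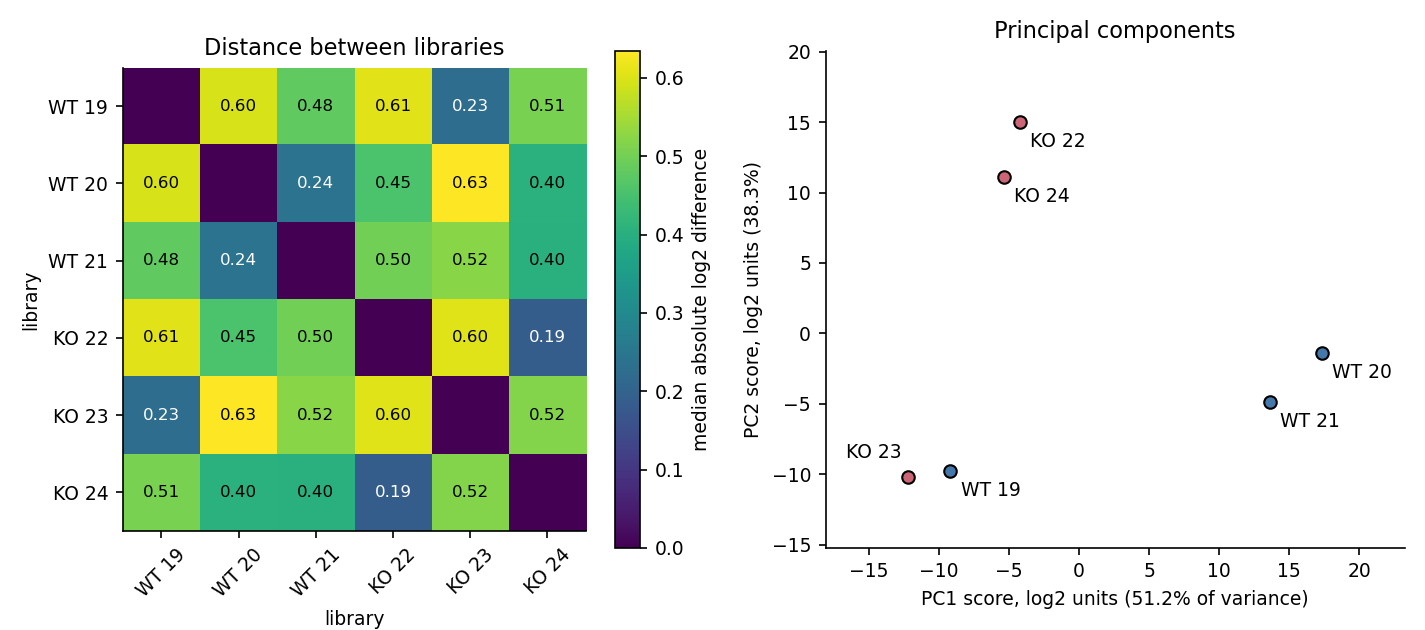
Left, the median absolute log2 difference over 533 miRNAs for each pair of libraries, by colour and number. Right, the scores of the 6 libraries on the first 2 principal components (log2 units), WT in blue and KO in red. WT library 19 and KO library 23 lie side by side, away from the other libraries of their groups.

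The main question was which miRNAs differ after loss of ELAC2 in the ageing prostate without a tumour. 7 of 11 miRNAs of leukocytes, led by miR-142a-5p, stood higher in every KO library, as did miR-10a, miR-30a, miR-708 and members of the miR-17 to 92 cluster. miR-193b and miR-365, miR-210-3p and miR-1291 stood lower. The imprinted cluster of chromosome 12 had lower means in KO throughout, which rested on WT libraries 20 and 21. None of these differences passed the adjusted threshold of the main test. In limma on log2(normalised count + 1), 0 of 533 miRNAs passed an adjusted p of 0.05 (0.0% of those tested). An unadjusted p under 0.05 was reached by 74 miRNAs (13.9%), 29 higher in KO (5.44%) and 45 lower (8.44%). In edgeR's quasi-likelihood test 0 passed adjustment and 100 had an unadjusted p under 0.05. DESeq2 (Wald test, recovered reads) called 52 miRNAs at an adjusted p under 0.05 (9.76%), of which 17 were higher (3.19%) and 35 lower (6.57%), and limma with library quality weights called 138 (25.9%). Without WT library 19 limma called 70 of 538 (13.0%), of which 6 were higher (1.12%) and 64 lower (11.9%). Without KO library 23 it called 21 of 541 (3.88%), of which 19 were higher (3.51%) and 2 lower (0.37%). Without both it called 212 of 535 (39.6%), of which 102 were higher (19.1%) and 110 lower (20.6%). Without any one of libraries 20, 21, 22 or 24 it called 0. Libraries 19 and 23 were picked out from these same values, because each lay nearest to a library of the other group. Calls made without them, here and below, are therefore not independent support. Since no miRNA passed the main test, the values below are described as higher or lower and not as changed.

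Values are given throughout as normalised counts in the order of libraries 19, 20 and 21 for WT and 22, 23 and 24 for KO. A simpler description asks whether all 3 KO libraries lay on one side of all 3 WT libraries. Groups did not overlap for 77 miRNAs (14.4%), 42 higher in KO (7.88%) and 35 lower (6.57%). The 42 higher miRNAs had log2 differences of 0.15 to 1.69, and in 26 of them library 23 was the lowest KO library. The 35 lower miRNAs had differences of 0.17 to 2.66 in size. The balance depended on scaling. When values were scaled to each library's total reads in place of the size factors, the median log2 difference of all miRNAs moved from 0.0092 to -0.22. The miRNAs with an unadjusted p under 0.05 then divided into 9 higher and 61 lower, and those with groups apart into 20 higher (3.72% of 538) and 72 lower (13.4%). Differences reported below are relative to the size factors.

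**Figure D2:**
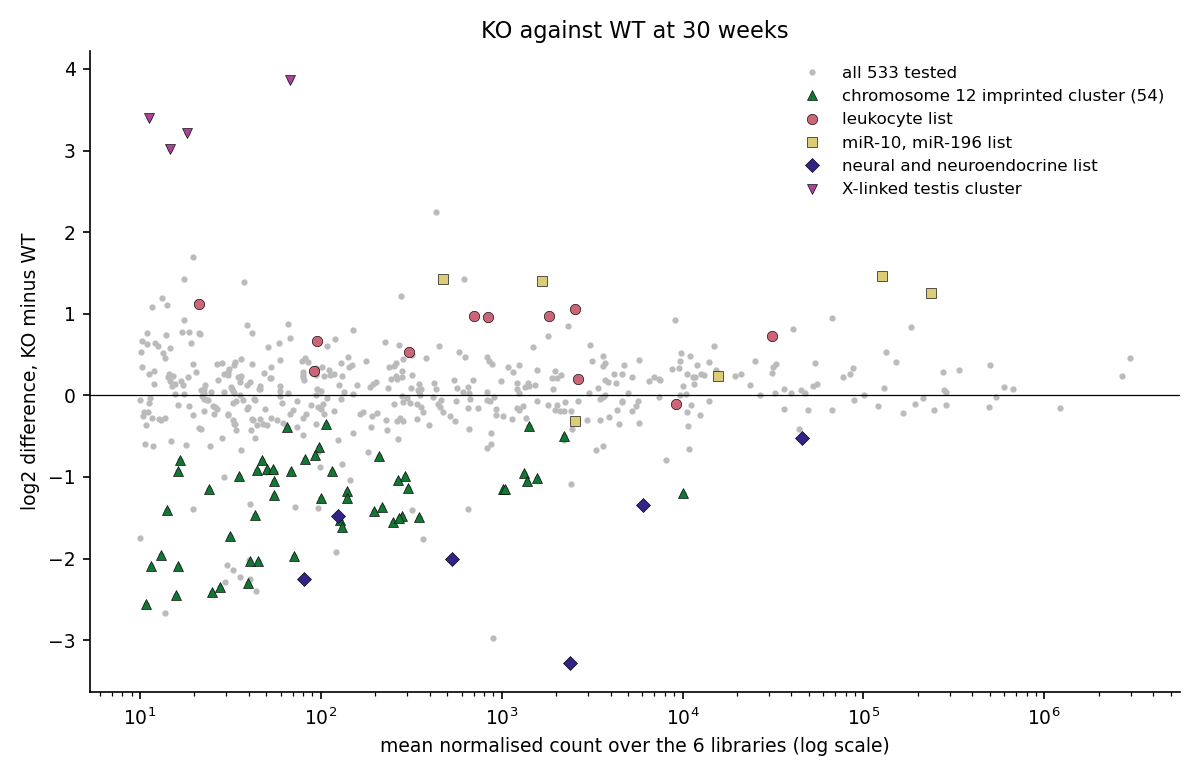
Each point is 1 of the 533 miRNAs, with its mean normalised count over the 6 libraries (log scale) against its log2 difference, KO minus WT. The 54 miRNAs of the chromosome 12 cluster all lie below 0, most leukocyte miRNAs lie above 0, and 4 miRNAs of an X-linked testis cluster lie highest.

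The clearest group with higher values in KO was that of miRNAs known from leukocytes. All 11 of the list were tested and 10 had a log2 difference above 0 (50.8% of all miRNAs did), with a median log2 difference of 0.73 against 0.0092 over all 533 miRNAs. Groups did not overlap for 7 of the 11, all higher in KO, against 7.88% of all miRNAs. After scaling to total reads the median was 0.50, 9 remained above 0 and groups did not overlap for 4 of 11, against 3.72%. In bulk lobes a larger number of leukocytes and more of these miRNAs per cell cannot be told apart.

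miR-142a-5p, whose gene is transcribed in blood cells of nearly all kinds, led the group. Its normalised counts were 1684, 1628 and 1644 in WT and 3260.2, 3421 and 3698 in KO. The 3 WT libraries lay close together and every KO library lay far above them, with a KO mean 2.09-fold higher on the log2(normalised count + 1) scale. The log2 difference was 1.06 ± 0.15 (SE) and its adjusted p in limma was 0.12, the lowest of the comparison. DESeq2 gave an adjusted p of 1.9e-09, limma gave 0.0084 without library 19 and 0.020 without library 23, with a range of 1.9e-09 to 0.86 over the alternatives. miR-142a-3p, from the opposite side of the hairpin, stood at 419.7, 539 and 468 in WT and 1072, 778 and 969 in KO, a log2 difference of 0.98 ± 0.21 (SE). Both arms come from Mir142 (GRCm38.p6 chr11:87756864-87756927), in an intron of the non-coding host Mir142hg.

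miR-146a-5p, which restrains signalling from Toll-like receptors, was the most abundant member at 25549.6, 21898 and 22412 in WT and 42443, 31799 and 42529 in KO. It was 1.66-fold higher in KO, with libraries 22 and 24 above library 23. miR-155-5p, induced in activated lymphocytes and macrophages, stood at 422, 756 and 571 in WT and 1233, 962 and 1122 in KO, a log2 difference of 0.96 ± 0.26 (SE). Its hairpin lies in an exon of Mir155hg (chr16:84714140-84714204). miR-150-5p, of mature lymphocytes, had 1164, 1502 and 976 in WT and 1932, 3361 and 2004 in KO, and here library 23 was the highest. miR-223-3p, of granulocytes and monocytes, had 204, 282 and 273 in WT and 386, 352 and 352 in KO, and its other arm miR-223-5p had 82.97, 76.2 and 62.9 in WT and 116, 124 and 114 in KO. The adjusted p of each of these was 0.34 or more in limma, and both arms of miR-223 also had groups that did not overlap.

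The other 4 members did not separate the groups. miR-150-3p was low and scattered, with a log2 difference of 1.12 ± 0.56 (SE). miR-342-3p and miR-342-5p had 0.20 ± 0.27 and 0.30 ± 0.26 (SE). miR-146b-5p, which has the seed of miR-146a-5p and a different gene, had 10269, 9224 and 8967 in WT and 7878, 10363 and 8411 in KO, a difference of -0.10 ± 0.17 (SE). No member was at 0 in any library. Summed over the list, these miRNAs took 0.251% to 0.316% of reads in WT and 0.331% to 0.383% in KO. Without library 19 the median of the list was 0.76 with 3 members past an adjusted p of 0.05 (1.12% of all miRNAs, higher in KO), and without library 23 it was 0.72, also with 3 (3.51%).

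Further miRNAs stood higher in every KO library, and several of them shared a gene or a seed. miR-708-5p, made within the gene Tenm4 (Odz4), had 205, 446 and 361 in WT and 665, 1281 and 750.3 in KO, and its other arm miR-708-3p had 98.6, 201 and 204 in WT and 299, 532 and 321 in KO. Both arms were highest in KO library 23 and lowest in WT library 19, with log2 differences of 1.42 ± 0.38 and 1.21 ± 0.38 (SE). miR-1a-3p, of skeletal and cardiac muscle, had 49840.0, 42247 and 42534 in WT and 67230.0, 117286 and 80861 in KO, a log2 difference of 0.94 ± 0.24 (SE), and library 23 was again the highest. Both miR-708 arms and miR-1a-3p were called by DESeq2 but had an adjusted p of 0.34 in limma.

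The miR-10 family lies within the Hox gene clusters and is expressed along the body axis, more in the tail end where the prostate forms. miR-10a-5p had 142263, 119776 and 119571 in WT and 487072, 143079 and 399798 in KO. KO libraries 22 and 24 stood far above WT, whereas library 23 lay just above the highest WT library. The log2 difference was 1.26 ± 0.45 (SE), and without library 23 it was 1.80 (adjusted p in limma 0.0081, all alternatives, 2.0e-09 to 0.86). miR-10a-3p, the other arm of Mir10a (chr11:96317165-96317274), followed with 963, 839.6 and 782 in WT and 3313, 1179 and 2986 in KO.

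miR-10b-5p, from an intron of Hoxd3 and Hoxd4 (chr2:74726070-74726137), had 39209, 67255 and 58569 in WT and 309172, 43377 and 238849.9 in KO. Its groups overlapped, because library 23 lay near the lowest WT library while libraries 22 and 24 were several-fold above all WT. miR-10b-3p had the same order, with 127, 277 and 268 in WT and 1041, 188 and 937 in KO. miR-196a-5p and miR-196b-5p, also of the Hox clusters, had differences of -0.31 ± 0.34 and 0.23 ± 0.25 (SE). Of the 6 members of this list 2 had groups that did not overlap and were higher in KO (7.88% of all miRNAs were), 4 passed an adjusted p of 0.05 without library 23 (3.51% of all miRNAs did, higher in KO), and the median was 1.33. The smooth muscle list moved along the same libraries as miR-10b-5p, with 29.3% of reads in library 22, 12.4% in library 23 and 26.95% in library 24, against 13.1%, 23.8% and 20.3% in WT. Among the WT libraries, miR-10a-5p was instead highest where this list was lowest. The 5 members of the smooth muscle list had a median of 0.27 and none had groups apart. The part of smooth muscle in the miR-10 values was not tested.

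The miR-30 family, broadly expressed in epithelium, had 2 of 5 tested 5p members with groups apart and higher in KO, against 7.88% of all miRNAs, and a median of 0.26. After scaling to total reads 1 of the 5 had groups apart, against 3.72%, and the median was 0.03. miR-30a-5p had 128575, 133078 and 120655 in WT and 324284, 139526 and 260833 in KO, a log2 difference of 0.84 ± 0.32 (SE), and again libraries 22 and 24 lay far above library 23. Its other arm miR-30a-3p was less spread, with 14209, 10296 and 11306 in WT and 19326, 16725 and 18192 in KO, a difference of 0.61 ± 0.18 (SE). miR-30c-5p, with the seed of miR-30a-5p, had 141591, 92930.5 and 95573 in WT and 167517, 143054 and 159295 in KO. Both arms of miR-30a come from Mir30a (chr1:23272269-23272339).

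The miR-17 to 92 cluster is a polycistron on chromosome 14 with growth-promoting roles in many tissues, and 9 of its 10 tested arms had higher means in KO, against 50.8% of all miRNAs. Groups did not overlap for 3 of the 10, against 7.88%. miR-20a-5p had 1642, 1647 and 1559 in WT and 4074, 2038 and 3012 in KO, a log2 difference of 0.86 ± 0.27 (SE). miR-92a-3p, which has copies on chromosomes 14 and X that cannot be told apart, had 8295, 7939 and 7979 in WT and 12607, 10044 and 12211 in KO, a difference of 0.52 ± 0.16 (SE). miR-17-5p, with the seed of miR-20a-5p, overlapped, with 1187, 1536 and 1276 in WT and 3078, 1475 and 2325 in KO.

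The paralogous miR-106b to 25 cluster on chromosome 5 had 6 of 6 tested arms above 0, against 50.8% of all miRNAs. In it miR-93-5p had 5414, 4789.5 and 4429.7 in WT and 7590.1, 5926 and 6300.1 in KO. In contrast, the X-linked paralogues miR-106a-5p, miR-20b-5p and miR-363-3p had -0.39 ± 0.37, -0.42 ± 0.44 and -0.45 ± 0.59 (SE), although the first pair carries the seed of miR-17-5p. These sizes depended on scaling: after scaling to total reads 6 of 10 arms of the chromosome 14 cluster stayed above 0, and none of the 12 tested members of the family list had groups apart.

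Among less abundant or less different miRNAs with groups apart, miR-224-5p had 429, 328 and 319 in WT and 528, 545 and 554 in KO, with a narrow range in KO. miR-199a-5p, of fibroblasts, had 21856, 23497 and 19549 in WT and 30452, 26385 and 29726 in KO. Of the 4 fibroblast miRNAs counted in the list, 3 had groups apart and higher in KO, against 7.88% of all miRNAs, with a median of 0.28. After scaling to total reads none of those 4 had groups apart. A further fibroblast entry, summed from identical miRNAs, was tested but left out of the list, and was 1.26-fold higher in KO. miR-215-5p had 6.83, 6.77 and 14.3 in WT and 30.9, 20.99 and 25.01 in KO, and miR-499-5p, of muscle, had 7.81, 8.46 and 6.67 in WT and 14.4, 58.5 and 22.7 in KO.

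**Figure D3:**
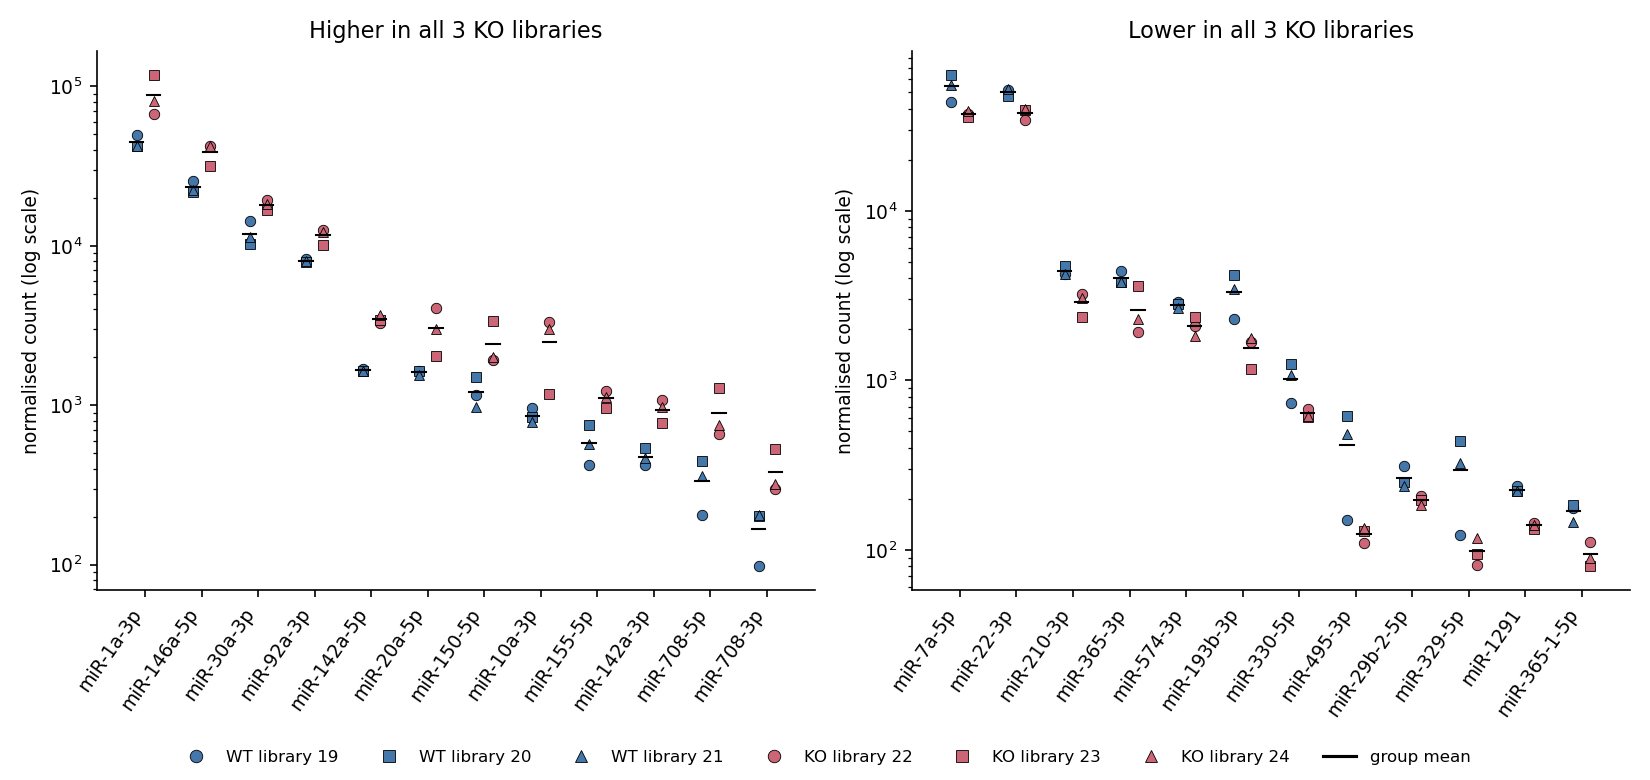
Normalised counts (log scale) of the 12 miRNAs with the lowest unadjusted p in each direction, among those with a mean of at least 100 and groups that do not overlap. Each symbol is a library, WT in blue and KO in red, and the bar is the group mean. KO library 23 (red square) stands nearest to WT for miR-10a-3p and miR-20a-5p.

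Among the miRNAs with lower values in KO, those of the miR-193b and miR-365 hairpins on chromosome 16 (chr16:13449523-13453926) went together. All 4 tested arms of this locus had lower means in KO, against 49.2% of all miRNAs, and 3 had groups that did not overlap, against 6.57%. miR-193b-3p, which is known to act on growth and on fat cell programmes, had 2307, 4170.0 and 3451 in WT and 1676, 1171 and 1778 in KO. It was 2.12-fold lower in KO, a log2 difference of -1.08 ± 0.28 (SE). Its adjusted p in limma was 0.34, or 0.019 without library 19 (all alternatives, 5.7e-06 to 0.86). miR-193b-5p overlapped, with 81.02, 71.1 and 60.98 in WT and 26.5, 68.5 and 26.1 in KO, and library 23 lay among WT.

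miR-365-3p has copies on chromosomes 16 and 11 and had 4443, 3808 and 3815 in WT and 1919.9, 3596 and 2311 in KO. The 5p arms tell the copies apart. miR-365-1-5p, of the chromosome 16 copy, had 177, 185 and 146 in WT and 112, 80.6 and 89.8 in KO, a log2 difference of -0.85 ± 0.25 (SE). miR-365-2-5p, of the chromosome 11 copy (chr11:79726400-79726511), had 46.9, 21.2 and 31.4 in WT and 22.08, 43.1 and 35.2 in KO, a difference of 0.03 ± 0.43 (SE). The difference between the copies was not tested. miR-193a-3p, the paralogue of miR-193b-3p, had -0.30 ± 0.33 (SE).

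miR-210-3p, the classical miRNA of the response to low oxygen, had 4242, 4735 and 4242 in WT and 3230.3, 2375 and 3069 in KO. It was 1.54-fold lower in KO, a log2 difference of -0.62 ± 0.18 (SE), and its other arm miR-210-5p had 120.1, 110.0 and 125 in WT and 73.97, 92.8 and 55.7 in KO. The hairpin lies at chr7:141221384-141221493. miR-22-3p, made from an exon of the non-coding Mir22hg, had 51414, 47704 and 52219.6 in WT and 34283, 39598 and 39878 in KO, a difference of -0.41 ± 0.15 (SE), and miR-22-5p had -0.29 ± 0.37 (SE) with groups that overlapped. miR-330-5p had 738, 1253 and 1081 in WT and 681, 612 and 619.5 in KO, miR-574-3p had 2882, 2803 and 2661 in WT and 2088, 2374 and 1829 in KO and miR-29b-2-5p had 310.4, 252 and 238 in WT and 209, 198 and 184 in KO.

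miR-1291 is cut from a small nucleolar RNA, Snora34, in an intron of Kansl2 (chr15:98519762-98519878). Its values formed 2 tight groups, 238, 222 and 221 in WT and 145, 134 and 139.8 in KO, a log2 difference of -0.70 ± 0.20 (SE), adjusted p 0.34 in limma. Of the 6 tested miRNAs derived from tRNA or small nucleolar RNA, 5 had lower means in KO (49.2% of all miRNAs did) and the median was -0.24. miR-1291 was the member with groups apart, against 6.57% of all miRNAs. After scaling to total reads all 6 had groups apart and lower in KO, against 13.4% of all miRNAs. miR-877-5p, a mirtron whose hairpin ends are made by splicing, had 86.9, 79.6 and 82.9 in WT and 62.9, 76.2 and 52.3 in KO. It was the 1 of 4 tested mirtrons with groups apart and lower in KO, against 6.57% of all miRNAs.

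The largest body of miRNAs with lower values in KO came from 1 locus, the imprinted Dlk1-Dio3 region of chromosome 12, whose miRNAs are expressed from the maternal copy and are abundant in neural tissue. Between 109571990 and 109743795 (GRCm38.p6) 54 tested arms were matched by the annotation to 38 miRNA genes, and arms without a matched entry are not counted. All 54 had a log2 difference below 0 (49.2% of all miRNAs did), also after scaling to total reads, with a median log2 difference of -1.16 and a range of -2.55 to -0.35. An unadjusted p under 0.05 was reached by 26 of the 54, against 8.44% of all miRNAs, and DESeq2 called 19, against 6.57%. Groups did not overlap for 12 of the 54, against 6.57%. After scaling to total reads groups did not overlap for 11 of the 54 (20.4%), against 13.4% of all miRNAs. Because the arms come from 1 locus and 1 set of libraries, they are not 54 separate observations.

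The per-library values show which libraries carried these differences. miR-127-3p, made opposite to an exon of Rtl1 (chr12:109592846-109592915), had 6725, 19642 and 17069.9 in WT and 5116, 6833 and 5299 in KO. miR-495-3p had 150.3, 615 and 483 in WT and 110.4, 129 and 134 in KO, and miR-329-5p had 123, 440.1 and 325 in WT and 81.7, 94.99 and 117 in KO. WT libraries 20 and 21 were high and the other 4 libraries low. Among the arms with groups apart, miR-493-5p had 15.6, 102 and 89.6 in WT and 11.04, 11.05 and 7.96 in KO, a log2 difference of -2.30 ± 0.72 (SE), and miR-323-3p had 25.4, 192 and 141 in WT and 24.3, 19.9 and 21.6 in KO. Even in these, library 19 stood nearer to KO than to the other WT libraries.

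WT libraries 20 and 21 were above all other libraries for 53 of the 54 arms. WT library 19 was below both of them for 54, and lay within the range of the KO libraries for 33. The cluster took 0.0955%, 0.384% and 0.310% of reads in WT and 0.0849%, 0.109% and 0.0860% in KO. The lower means in KO thus came from 2 of the 3 WT libraries. Without library 19, 36 of the arms passed an adjusted p of 0.05 (background 11.9%) and the median was -1.78. Without library 23, 1 passed and the median was -1.30.

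**Figure D4:**
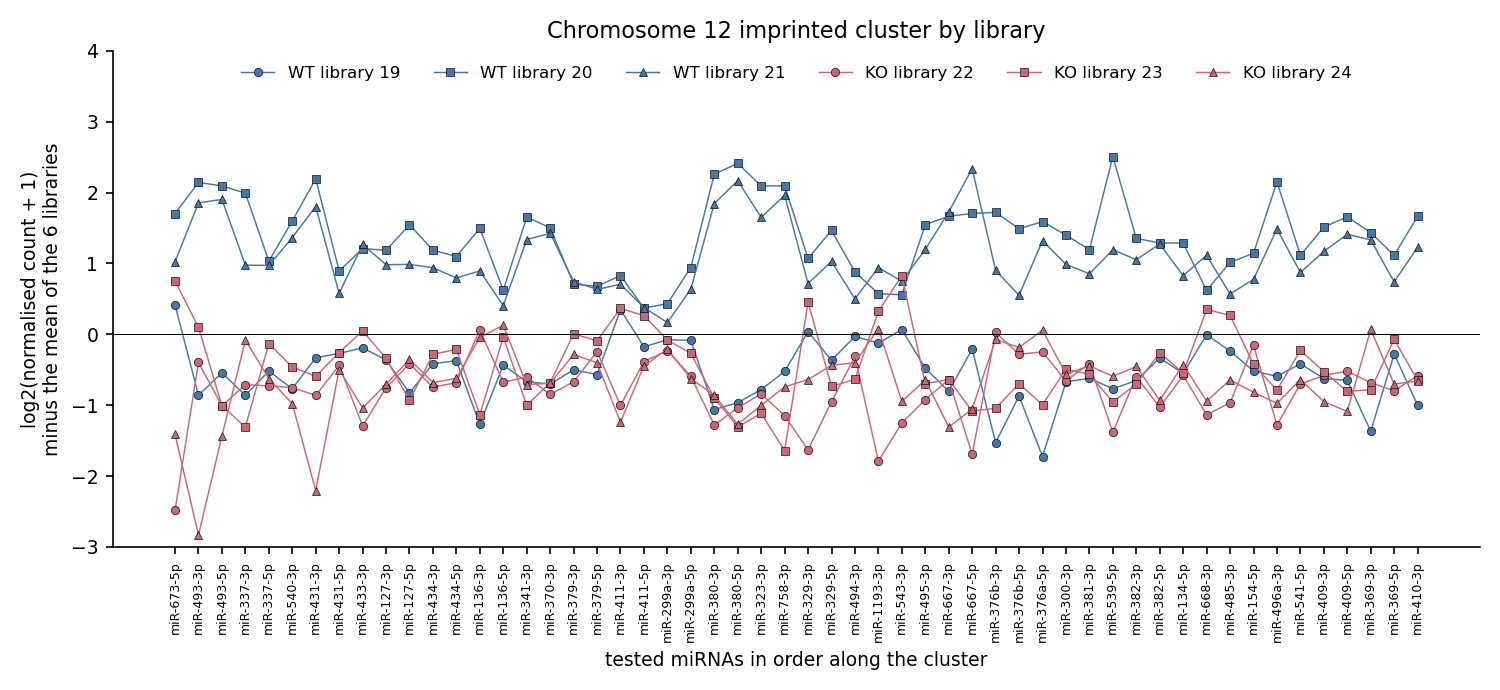
The 54 tested arms of the chromosome 12 cluster in their order along the locus, each as log2(normalised count + 1) minus the mean of the 6 libraries. WT libraries 20 and 21 (blue squares and triangles) run above the others for 53 of the 54 arms, whereas WT library 19 (blue circles) runs among the KO libraries (red).

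miRNAs of nerve and neuroendocrine cells followed the same libraries. All 6 tested members had lower means in KO (49.2% of all miRNAs did), with a median of -1.75. They took 0.282% of reads in library 19, 0.706% in library 20 and 0.566% in library 21, against 0.236% to 0.261% in KO. miR-7b-5p had 311, 7832 and 5433 in WT and 279, 158 and 323 in KO, a log2 difference of -3.28 ± 1.15 (SE). miR-9-5p, of neural progenitors, had 2327, 14014 and 11193 in WT and 3616, 1987 and 3092 in KO, and miR-124-3p, of neurons, had 7.81, 235 and 185 in WT and 28.7, 4.42 and 21.6 in KO. None of these was at 0 in a library.

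In all 3 the high values stood in libraries 20 and 21. The exception was miR-7a-5p, which shares the seed of miR-7b-5p and is made within Hnrnpk and at a second locus. It had 44049, 63059 and 55368 in WT and 37216, 35753 and 38951 in KO, with all 3 WT libraries above KO, and a difference of -0.52 ± 0.18 (SE). Without library 19, 5 of the 6 passed an adjusted p of 0.05 (11.9% of all miRNAs, lower in KO). Whether nerve or ganglion content of the lobes contributed to the chromosome 12 values was not tested. miR-138-5p, outside the list and also abundant in brain, had 72.2, 3062 and 1851 in WT and 177, 30.9 and 151 in KO. miR-338-3p, made in an intron of Aatk (chr11:120014765-120014862) and known from nerve and glia, had 91.8, 1012 and 733 in WT and 123, 91.7 and 155 in KO. miR-383-5p had 7.81, 82.9 and 65.7 in WT and 8.83, 3.31 and 9.09 in KO, once more with libraries 20 and 21 highest and library 19 within the range of KO.

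At the other end, 4 miRNAs of an X-linked cluster known from testis had the highest fitted log2 differences, whose size depends on the pseudocount because WT was at or near 0. They were present in 2 KO libraries and almost absent from the other 4. miR-881-3p had 0, 5.08 and 0.953 in WT and 256, 0 and 142 in KO, and miR-465b-5p had 0.976, 0.846 and 0 in WT and 59.6, 0 and 47.7 in KO. miR-470-5p had 0, 0.846 and 0.953 in WT and 48.6, 0 and 37.5 in KO and miR-465c-5p had 0, 0 and 0 in WT and 28.7, 0 and 38.7 in KO. KO library 23 was at 0 for all 4, so the groups overlapped, and the other 10 of the 14 listed miRNAs of this cluster did not reach the mean of 10. No fold is given against values this close to 0. miR-135a-5p had a similar order at a higher level, with 77.1, 107 and 77.2 in WT and 1339, 55.2 and 945 in KO, and without library 23 its difference was 3.69 (adjusted p 0.0068 in limma, all alternatives 1.4e-09 to 0.86).

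The listed miRNAs of epithelium, where the probasin promoter drives Cre, did not separate the groups under the size factors. Of the 5 miR-200 family members 2 had higher and 3 lower means in KO, with a median of -0.02. miR-200b-3p had a log2 difference of -0.02 ± 0.32 (SE), miR-200a-3p 0.04 ± 0.19 and miR-200c-3p -0.12 ± 0.28. After scaling to total reads all 5 were lower, with a median of -0.25 against -0.22 over all miRNAs. Groups were then apart and lower in KO for 2 of the 5, against 13.4% of all miRNAs. miR-205-5p, of basal epithelium, had 66612, 44948 and 46886 in WT and 56989, 59953 and 55543 in KO. miR-375-3p, of secretory cells, had 42089, 20037 and 24664 in WT and 70839, 27516 and 58546 in KO, a difference of 0.82 ± 0.42 (SE), again with library 23 among WT. The cluster of miR-183, miR-96 and miR-182 had a median of 0.00 over 3 members. Scaled to total reads, 1 of the 3 had groups apart and lower in KO, against 13.4% of all miRNAs. With 3 libraries a group and no miRNA past adjustment in the main test, differences well beyond 2 of these SEs could be missed.

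The most abundant miRNAs of the prostate gave no separation either. miR-143-3p, of smooth muscle, had 2051939, 2748160.1 and 2487623 in WT and 4550286, 1902325 and 4185460.0 in KO, a difference of 0.46 ± 0.36 (SE), and miR-148a-3p, of glandular cells, had 3713155, 1714209 and 2175197 in WT and 2407385, 3580526 and 2651475 in KO, 0.24 ± 0.33 (SE). Libraries 19 and 23 were lowest for the first and highest for the second. The other KO libraries lay above the other WT libraries for both. miR-21a-5p, let-7f-5p and miR-26a-5p had -0.15 ± 0.27, 0.08 ± 0.25 and 0.11 ± 0.24 (SE). None of the 12 most abundant miRNAs had groups that did not overlap.

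Skeletal muscle can be taken along with the lobes, and its markers varied among libraries of both groups. miR-206-3p had 2563, 62.6 and 722 in WT and 57.4, 1414 and 413 in KO, highest in WT library 19 and KO library 23. miR-133a-3p had 11313, 11854 and 11133 in WT and 13452, 12499 and 15485 in KO. Of the 5 tested muscle miRNAs 3 had groups apart and higher in KO, against 7.88% of all miRNAs, with a median of 0.27. Scaled to total reads, 2 of the 5 had groups apart, against 3.72%, and the median was 0.04. The list took 0.388% to 0.448% of reads in WT and 0.501% to 0.820% in KO. The part of muscle content in the value of miR-1a-3p was not tested. The red cell miRNA miR-451a had 1758, 3537 and 2764 in WT and 1702, 1749 and 1842 in KO and lay no higher in KO. The red cell list was mixed, with a median of 0.17 over 5 members and none apart. Of these, 3 were above 0 and 2 below, with log2 differences of -0.55 to 1.08. A further red cell entry, summed from identical miRNAs, was tested but left out of the list, and was 1.89-fold higher in KO. miR-126a-3p, of endothelium, had 95039.6, 155831 and 135833 in WT and 213472, 116293 and 188154 in KO.

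**Figure D5:**
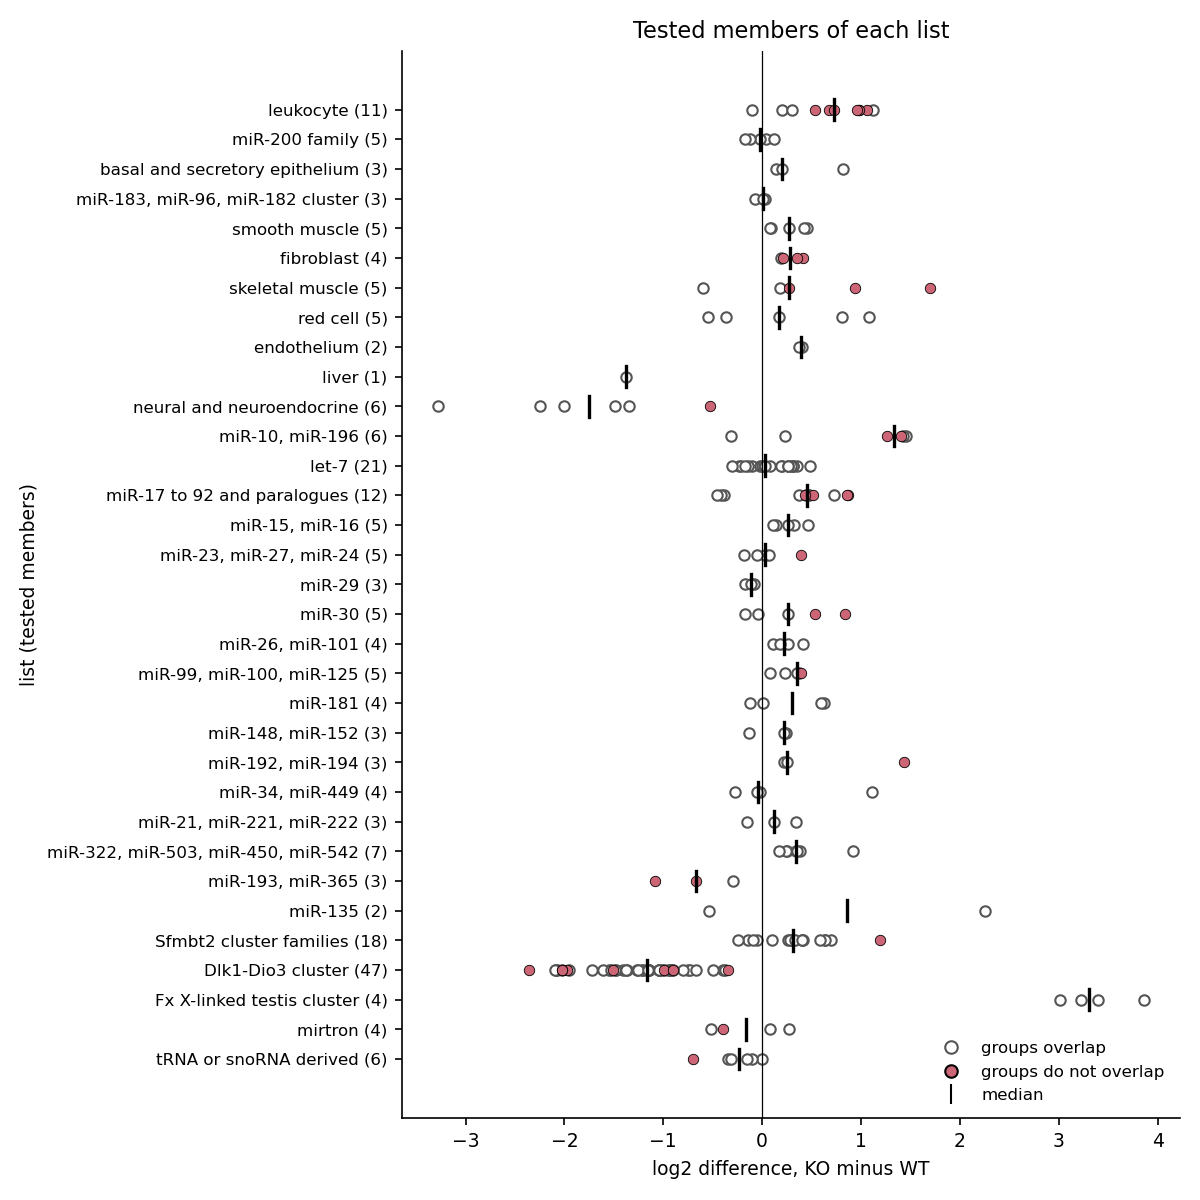
Log2 difference, KO minus WT, of the tested members counted in 33 lists of miRNAs, with the median as a bar and their number in brackets. A tested entry of the red cell list and a tested entry of the fibroblast list were not counted and are not shown. Filled points have groups that do not overlap. The leukocyte list has 7 filled points above 0 of 11, and the Dlk1-Dio3 list lies wholly below 0.

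Other families were described by their counts alone. Of 21 tested let-7 arms 14 were above 0, against 50.8% of all miRNAs, with a median of 0.03, and groups were apart for none. The listed members of the miR-29 family, 3 in number, had a median of -0.12, those of the miR-15 and miR-16 family 0.26, those of the miR-34 and miR-449 family -0.04 and those of the miR-148 and miR-152 family 0.22, with no listed member apart. miR-29b-2-5p, described above, is a further arm outside its list and had groups apart. The family of miR-322, miR-503, miR-450 and miR-542 on the X chromosome had 8 of 8 tested arms above 0 (50.8% of all miRNAs were) with a median of 0.35, and miR-450b-3p, named after its values were seen, had groups apart and higher in KO. Scaled to total reads, 2 of the 8 were below 0. Of 18 tested miRNAs of families known from the imprinted Sfmbt2 cluster, taken by name and not by locus, 14 were above 0. The share over all miRNAs was 50.8%, and the median of the 18 was 0.31. Groups were apart and higher in KO for 1 of the 18, near the 7.88% of all miRNAs. miR-669c-5p and miR-676-5p, which the study names in other comparisons, had 0.10 ± 0.41 and 0.08 ± 0.23 (SE). miR-122-5p, of liver, was 266, 63.5 and 96.2 in WT and 70.7, 18.8 and 65.9 in KO, highest in library 19 and lowest in library 23.

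The next question was whether the KO differences at 30 weeks without TRAMP differed from those at 10 weeks. The interaction was fitted in limma over 519 miRNAs tested in both tables, which were normalised separately, and 0 passed adjustment while 70 had an unadjusted p under 0.05 (13.5%). miR-155-5p had the lowest p. At 10 weeks it stood at 836, 869 and 1124 in WT and 583, 679.7 and 546 in KO, lower in every KO library, and the difference between the ages was 1.59 ± 0.33 (SE, log2, adjusted p 0.15). miR-142a-5p at 10 weeks stood at 1881, 1617 and 1397 in WT and 1975, 1929 and 2110.0 in KO, higher in every KO library by a log2 difference of 0.31, against 1.06 at 30 weeks.

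The muscle miRNAs gave the largest interactions. miR-1a-3p at 10 weeks stood at 983259, 2669237 and 5540987 in WT and 94358, 735508 and 85537 in KO, and its interaction was 4.70 ± 1.09 (SE, adjusted p 0.15). The tables of the 2 ages were scaled apart, and the WT libraries of 10 weeks held more of it than any library of 30 weeks on their own scales. miR-499-5p, also of muscle, had 6.56 ± 1.47 (SE). miR-181a-2-3p had 3.93 ± 0.88 (SE). The chromosome 12 cluster had a median KO difference of -0.21 at 10 weeks, where the median of all shared miRNAs was 0.05. Of the 47 tested members of the Dlk1-Dio3 list, 30 were below 0 and 17 above at 10 weeks. Groups were apart and lower in KO for 8 of them at 30 weeks, against 6.57% of all miRNAs. At 10 weeks this held for 13, but the share over all miRNAs at 10 weeks was not counted. The counts of the 2 ages can therefore not be set against each other.

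The interaction with the TRAMP transgene, which drives a viral oncogene in prostate epithelium and causes tumours, was fitted over 507 miRNAs, with 0 past adjustment and 105 at an unadjusted p under 0.05 (20.7%). miR-877-5p had the lowest p. With TRAMP it stood at 27.4, 29.5 and 28.7 in WT-TRAMP and 72.5, 98.4 and 90.8 in KO-TRAMP, higher in every KO-TRAMP library, against lower in every KO library without TRAMP. The difference between the effects was -1.96 ± 0.34 (SE, log2, adjusted p 0.062). miR-30a-3p with TRAMP stood at 12256, 13758 and 12599.8 in WT-TRAMP and 9983, 7225 and 7542 in KO-TRAMP, lower in KO-TRAMP, and its interaction was 1.27 ± 0.24 (SE, adjusted p 0.062).

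miR-494-3p and miR-329-5p, both of the chromosome 12 cluster, had -2.31 ± 0.46 and -2.54 ± 0.57 (SE). With TRAMP miR-329-5p stood at 61.5, 86.3 and 74.9 in WT-TRAMP and 155, 183 and 148 in KO-TRAMP. The cluster's median KO difference with TRAMP was 0.61, against a median of -0.05 over all shared miRNAs and -1.16 for the cluster without TRAMP. miR-142a-5p with TRAMP stood at 6536, 9955 and 7623 in WT-TRAMP and 11713, 4153 and 6183 in KO-TRAMP, so that it did not separate the groups there. Library 19 touched these counts: without it 60 interactions with age and 61 with TRAMP passed an adjusted p of 0.05, and without library 23 there were 17 with TRAMP.

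Mice carrying the ELAC2 variant A537T at 30 weeks were compared with the same 3 WT libraries, so both comparisons carry the same WT values and are set side by side only. In that table miR-142a-5p stood at 1877, 1742 and 1804 in WT and 3895, 4602 and 3416 in A537T, a log2 difference of 1.12 against 1.06 in KO. miR-1291 stood at 266, 237 and 243 in WT and 118, 201 and 86.01 in A537T, -0.96 against -0.70. The leukocyte list had a median of 0.70 in A537T, where the median of all shared miRNAs was -0.04, and the chromosome 12 cluster had -0.44. miR-193b-3p had -0.75 in A537T against -1.08 in KO, and miR-10a-5p had 1.29 against 1.26.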

How the data were processed

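The authors sequenced small RNA libraries from total RNA, merged paired reads and removed adapters with BBMerge, quantified mature miRNAs with mirDeep2 against GRCm38 and miRBase, summed identical miRNAs, and deposited 1 table per comparison of normalised counts, a signal per miRNA made by dividing reads by DESeq2 size factors within the table's 6 libraries. The authors' tables of their own comparisons (means, fold changes, s-values) were not used. Libraries were grouped by the table and column names. Whole reads were recovered from the deposited signal (tolerance 0.001), and 100% of the changed miRNAs (4-fold) of a simulated comparison were recovered, 188 of 526 tested. Every simulated miRNA had the same dispersion, and no simulated library resembled the other group. The recovery therefore does not show what the test can find in the real libraries.

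The main test was limma 3.58.1 (R 4.3.3) with an intensity trend (limma-trend) on log2 of the normalised count plus 1, for means of at least 10, with Benjamini-Hochberg adjustment at 0.05. The result was recomputed with a pseudocount of 10, without a filter, with a minimum of 100, total scaling, TMM factors, no trend, library weights, edgeR 4.0.16, DESeq2 1.42.0 and left-out libraries. The p-values measure the spread between 3 libraries a group. Members and lists were chosen with earlier results of these data known. Named miRNAs were the 12 most abundant, up to 12 per direction with groups apart and a mean of at least 100 by unadjusted p, their other arms, the leading members of each list, the miRNAs the study names, those leading each interaction and those called by both DESeq2 and weighted limma. Of these, 73 are given by counts alone, and 13 others (such as miR-10b-3p, miR-193a-3p and miR-224-5p) were added after their values were seen.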

Additional observations from a re-analysis of the deposited data

Results flagged for a closer look

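The KO libraries lay wholly on 1 side of WT at 30 weeks without TRAMP and wholly on the other side for 10 miRNAs at 10 weeks and for 13 with TRAMP. The 16 of these results given here are those of miRNAs that the rule for named miRNAs selects. The differences between the effects are log2 values from limma interactions, and none passed an adjusted p of 0.05. They were picked out because the groups were apart in opposite directions, so their unadjusted p-values are not independent support.

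Against 10 weeks, where 519 miRNAs were tested in both tables, the difference (effect at 30 weeks minus effect at 10 weeks) was 1.59 for miR-155-5p, of activated lymphocytes and macrophages. It was 6.56 for miR-499-5p, 4.70 for miR-1a-3p and 3.72 for miR-133a-3p, all known from muscle. miR-499-5p at 10 weeks stood at 229, 706 and 2145 in WT and 7.31, 140.5 and 10.9 in KO. The amount of muscle in the lobes was not measured apart from these miRNAs. The difference was -3.16 for miR-667-5p of the chromosome 12 cluster and 1.01 for miR-30a-3p.

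Against KO-TRAMP and WT-TRAMP mice at 30 weeks, where 507 miRNAs were tested in both tables, the difference (effect without TRAMP minus effect with TRAMP) was below 0 for 4 miRNAs of the chromosome 12 cluster. It was -2.31 for miR-494-3p, -2.54 for miR-329-5p, -3.39 for miR-493-5p and -1.15 for miR-299a-3p. Of the miR-30 family it was above 0, at 1.44 for miR-30a-5p, 1.27 for miR-30a-3p and 0.78 for miR-30c-5p. miR-10a-3p had 1.96, miR-877-5p -1.96 and miR-7a-5p -0.98. With TRAMP, miR-30a-5p stood at 194554, 158627 and 172694 in WT-TRAMP and 141332, 92120.0 and 116198 in KO-TRAMP.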

How the results depend on the processing

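No paired analysis was possible because the columns carry a library number and no replicate number. At an adjusted p under 0.05, limma called 0 miRNAs with a pseudocount of 10, no filter, total scaling, TMM factors or no variance trend, as did edgeR, against 1 at a mean of at least 100 (45 at an unadjusted p, 49 with groups apart), 138 with library weights (194 without adjustment), 52 in DESeq2 (115 unadjusted) and 212 without libraries 19 and 23 (246 unadjusted, 370 with groups apart). Without a filter 128 of 1308 had an unadjusted p under 0.05. Leaving out 1 library gave 0 to 70 adjusted and 15 to 133 unadjusted calls and 88 to 254 miRNAs with groups apart. Smaller groups come apart more easily, so counts of groups apart with libraries left out cannot be set against those with every library kept. The interaction with age gave 39 unadjusted calls at a mean of at least 100, and leaving out 1 library gave 0 to 60 adjusted (without library 19, 60, without library 28, 12, and without library 32, 6) and 43 to 130 unadjusted. The interaction with TRAMP gave 1 adjusted call scaled to total reads, 2 without the variance trend and 65 unadjusted at a mean of at least 100, and leaving out 1 library gave 0 to 64 adjusted (without library 16, 64) and 71 to 168 unadjusted. The edgeR fit of the interaction with age was not run, because 1 column at 10 weeks did not show its reads clearly.

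Of 1478 alternative values for the 86 miRNAs named, 1233 kept direction and side of the threshold, 209 came past the threshold, and 36 for 14 miRNAs changed sign. Scaled to total reads, the sign turned for let-7f-5p (-0.15), miR-200a-3p (-0.19), miR-205-5p (-0.085), miR-26a-5p (-0.12), miR-342-3p (-0.026), miR-365-2-5p (-0.19), miR-669c-5p (-0.13) and miR-676-5p (-0.15). With TMM factors, the sign turned for miR-200a-3p (-0.025) and miR-365-2-5p (-0.028). With library weights, the sign turned for miR-200b-3p (0.054) and miR-206-3p (0.26). Without libraries 19 and 23, the sign turned for miR-200b-3p (0.063) and miR-676-5p (-0.00440). Leaving out 1 library at a time turned the sign for let-7f-5p (-0.086 to 0.26), miR-148a-3p (-0.00208 to 0.56), miR-200a-3p (-0.044 to 0.18), miR-200b-3p (-0.23 to 0.28), miR-200c-3p (-0.32 to 0.10), miR-206-3p (-2.07 to 0.64), miR-21a-5p (-0.37 to 0.019), miR-26a-5p (-0.030 to 0.29), miR-363-3p (-1.06 to 0.085), miR-365-2-5p (-0.24 to 0.31), miR-669c-5p (-0.14 to 0.52) and miR-676-5p (-0.079 to 0.17). The cause of these turns was not tested.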
